A study of Homo sapiens with 18 samples.

Results

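The 1000 widest MYC peaks of MDA-MB-231 cells, taken by end minus start from the authors' MYC peak list on chromosomes 1 to 22, were chosen by their measured width from among the 49142 MYC peaks on those chromosomes and 49833 in the whole list. Width thus selected the peaks, so the width of these peaks, and with it their MYC fold and q-value, describes how they were chosen and is no finding. MDA-MB-231 is an established cell line from a triple-negative breast cancer. Chromatin immunoprecipitation sequencing (ChIP-seq) had been run on the parental line for MYC, KDM2B, H3K4me3, H3K27me3 and H2AK119ub, and on an Empty Vector line for H3K27ac, with 2 libraries per target and 2 input libraries for each line; ATF4 libraries were not used here. H3K27ac and MYC were thus measured in different stocks of the line. No group was treated, each deposited list is 1 list for its target and does not resolve the libraries, and so no value below carries an error between libraries.

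MYC is a transcription factor of the basic helix-loop-helix leucine zipper family that binds DNA as a dimer with MAX, with the E-box CACGTG as its best known site. It is found at the promoters of most active genes and is known for genes of ribosome production, translation, nucleotide synthesis and growth, and in triple-negative breast cancer it is often abundant. KDM2B is a histone demethylase whose CXXC domain binds unmethylated CpG DNA and which brings the Polycomb complex ncPRC1.1, a writer of H2AK119ub, to CpG islands. H3K4me3 marks active promoters, H3K27ac marks active promoters and enhancers, and H3K27me3 is the mark of Polycomb complex PRC2.

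Promoters of 4 of the widest peaks are shown first, to give the DNA at which the broad signal lies. Each is 300 bases of the RefSeq promoter table (GRCh38.p14, hg38), from 250 before to 50 after the listed start, 5′ to 3′ on the gene's strand, and the capitals mark CACGTG and the related letters CACGCG and CGCGTG on either strand.
CCDC85B, chr11:65890423-65890722, plus strand: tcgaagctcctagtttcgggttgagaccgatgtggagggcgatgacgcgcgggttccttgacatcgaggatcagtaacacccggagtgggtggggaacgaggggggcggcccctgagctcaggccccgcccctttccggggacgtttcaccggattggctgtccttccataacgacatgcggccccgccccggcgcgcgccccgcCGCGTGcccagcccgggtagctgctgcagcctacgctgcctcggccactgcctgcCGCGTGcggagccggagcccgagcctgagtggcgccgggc
EPHA2, chr1:16156020-16156319, minus strand: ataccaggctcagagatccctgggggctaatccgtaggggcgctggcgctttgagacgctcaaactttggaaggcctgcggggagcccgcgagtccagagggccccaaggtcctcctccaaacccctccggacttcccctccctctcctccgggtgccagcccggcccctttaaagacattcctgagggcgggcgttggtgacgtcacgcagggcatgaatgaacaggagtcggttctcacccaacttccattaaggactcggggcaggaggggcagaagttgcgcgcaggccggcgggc
RPL3, chr22:39319574-39319873, minus strand: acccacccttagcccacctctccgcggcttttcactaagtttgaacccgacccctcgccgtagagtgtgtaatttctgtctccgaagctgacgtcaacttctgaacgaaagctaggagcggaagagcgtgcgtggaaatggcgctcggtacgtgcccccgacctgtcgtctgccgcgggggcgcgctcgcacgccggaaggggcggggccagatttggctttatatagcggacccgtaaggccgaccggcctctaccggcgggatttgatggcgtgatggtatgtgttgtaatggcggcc
RAB34, chr17:28718219-28718518, minus strand: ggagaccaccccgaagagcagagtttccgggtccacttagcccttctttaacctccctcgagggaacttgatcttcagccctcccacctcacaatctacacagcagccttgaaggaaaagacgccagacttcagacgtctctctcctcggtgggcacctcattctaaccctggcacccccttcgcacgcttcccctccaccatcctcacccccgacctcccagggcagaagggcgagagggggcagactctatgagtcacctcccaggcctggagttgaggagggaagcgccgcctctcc
None of these 4 promoters holds CACGTG, and the CCDC85B promoter alone holds CACGCG or CGCGTG, 2 times. The MYC summit, the base of highest signal in the peak, lay 180 bp into the gene from the listed start at EPHA2 and 149 bp into it at RPL3. At CCDC85B it lay 8777 bp downstream of the start, and at RAB34 at -1861 bp, before the start. All these summits lay outside the 300 bases shown, so the sequences are not those under the summits.

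Promoters of 4 further wide peaks, chosen after their values were seen because they hold both the MYC summit and CACGTG, stand for the peaks where the motif and the summit coincide.
TSPAN4, chr11:843855-844154, plus strand: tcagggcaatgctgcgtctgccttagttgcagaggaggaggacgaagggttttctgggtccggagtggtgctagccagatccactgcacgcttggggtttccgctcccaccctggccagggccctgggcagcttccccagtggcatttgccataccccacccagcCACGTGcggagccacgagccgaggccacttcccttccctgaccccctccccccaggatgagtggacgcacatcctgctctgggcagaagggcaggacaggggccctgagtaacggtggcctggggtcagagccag
TUBB, chr6:30721388-30721687, plus strand: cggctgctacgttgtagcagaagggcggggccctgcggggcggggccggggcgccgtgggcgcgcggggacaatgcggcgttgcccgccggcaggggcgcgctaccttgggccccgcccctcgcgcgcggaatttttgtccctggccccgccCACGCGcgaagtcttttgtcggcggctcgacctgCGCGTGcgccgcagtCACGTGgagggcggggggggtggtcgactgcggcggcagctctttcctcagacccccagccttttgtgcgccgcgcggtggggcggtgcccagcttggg
EIF4G1, chr3:184314356-184314655, plus strand: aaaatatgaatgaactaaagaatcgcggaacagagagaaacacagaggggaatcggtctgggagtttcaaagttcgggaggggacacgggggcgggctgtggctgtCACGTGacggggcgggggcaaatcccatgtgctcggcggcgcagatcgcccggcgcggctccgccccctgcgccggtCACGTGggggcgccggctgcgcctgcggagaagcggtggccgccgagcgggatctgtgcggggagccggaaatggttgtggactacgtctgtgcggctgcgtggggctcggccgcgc
SLC7A5, chr16:87869458-87869757, minus strand: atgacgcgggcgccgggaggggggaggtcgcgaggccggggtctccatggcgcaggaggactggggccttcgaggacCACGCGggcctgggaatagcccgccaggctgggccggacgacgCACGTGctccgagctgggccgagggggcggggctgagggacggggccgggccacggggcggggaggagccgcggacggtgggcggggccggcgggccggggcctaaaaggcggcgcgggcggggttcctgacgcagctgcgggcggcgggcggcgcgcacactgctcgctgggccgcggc
The distance from the middle of the nearest CACGTG to the MYC summit was 0.5 bp at TSPAN4, 11.5 bp at EIF4G1, 53.5 bp at SLC7A5 and 88.5 bp at TUBB. TSPAN4 encodes a tetraspanin, TUBB a beta-tubulin, EIF4G1 the scaffold of the cap-binding complex of translation initiation, and SLC7A5 the LAT1 transporter of large neutral amino acids.

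The 1000 peaks were 3848 to 18726 bp wide, with a median of 4649 bp, against a median of 518 bp in the other 48142 MYC peaks. Only 18 exceeded 10 kb and 55 exceeded 8 kb, while 622 were 5 kb or narrower, so most of the set lay close to its lower bound. The peaks ranked 1001 to 2000 by width, called the next 1000 here, were 3096 to 3847 bp wide. Together the 1000 peaks held 5.16 Mb, or 11.1% of all bases in MYC peaks, in 2.03% of the peaks. Just inside the bound lay the peaks at OSER1 (3851 bp, fold 15.8), HSPG2 (3848 bp, fold 13.1) and PPP1R16A (3848 bp, fold 12.2). Just outside it lay those at CNOT8 (3847 bp, fold 30.5), COPZ2 (3845 bp, fold 47.7) and PIK3CD (3843 bp, fold 8.39). These neighbours differ by a few bases, and the bound is a count and not a break in the widths.

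**Figure D1:**
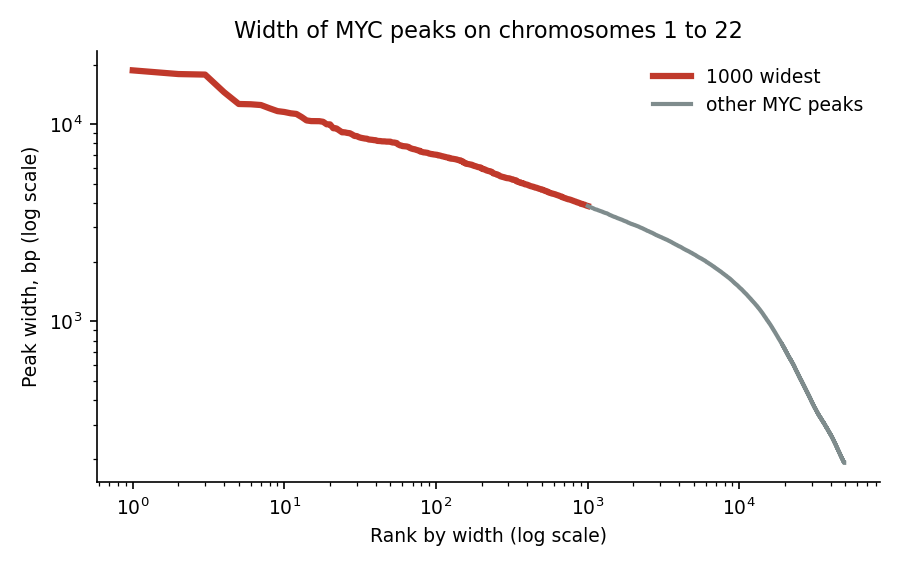
Width in bp of every MYC peak on chromosomes 1 to 22 against its rank by width, both axes logarithmic, with the 1000 widest in red and the other MYC peaks in grey. The curve passes the bound at 3848 bp without a step, and 18 peaks lie above 10 kb.

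The height of the wide peaks is given as a description. The fold, the authors' ratio of MYC signal over background at the summit, ran from 1.67 to 105 in the wide peaks with a median of 17.1, against medians of 15.5 in the next 1000 and 3.37 in all other MYC peaks. Of the wide peaks, 994 had a fold above 3.45, the median of all MYC peaks, yet only 206 were among the 1000 MYC peaks of highest fold. Spearman's rank correlation between width and fold was 0.79 across all MYC peaks and 0.066 across the wide peaks, over peaks that share their libraries, and restricting the range of widths lowers the second value.

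The widest peak, 18726 bp with a fold of 15.2, lay in PLEC on chromosome 8 (hg38 chr8:143927801-143946526), the gene of the cytoskeletal linker plectin, and 4 of the 1000 peaks overlapped that gene. Another spanned CCDC85B, FIBP and FOSL1 on chromosome 11 over 17826 bp with a fold of 20.3, and FOSL1 encodes the AP-1 subunit FRA-1. Both were wider than the peak at EPHA2, a receptor tyrosine kinase, of 14516 bp and fold 16.3.

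Below them, the peak at RPL3, a protein of the large ribosomal subunit, spanned 12648 bp with a fold of 18.4. The next, 12607 bp wide, covered RPL23A and TLCD1 with ends of RAB34 and NEK8 and reached a fold of 75.4, the fifth highest of the 1000. Peaks at MIDN and CIRBP (12495 bp, fold 25.4), HMGA1 and SMIM29 (12019 bp, fold 30.5), and MNT (11641 bp, fold 42.0) followed. MNT encodes a MAX partner that represses E-box genes and HMGA1 an architectural chromatin protein. The peaks at ITGA3 (11519 bp, an integrin subunit), MIR23AHG (11347 bp, the host of a microRNA cluster), CD151 with POLR2L and TSPAN4 (11260 bp), LAMA5 (10859 bp, a laminin chain) and inside RARA (10441 bp, a retinoic acid receptor) came next. The peaks at AXL (10360 bp, a receptor tyrosine kinase), CCND1 (10354 bp, cyclin D1), FMNL1 (10349 bp), CSF3 and MED24 (10274 bp), GCN1 and RPLP0 (9981 bp), and STX10 and IER2 (9968 bp) followed. Among the 20 widest the fold was lowest at LAMA5, 9.54, and highest at the RPL23A peak.

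The highest folds sat in narrower members of the set. The peak at SNHG15, a host of small nucleolar RNA, had a fold of 105 at a width of 4466 bp. EEF1B2 with NDUFS1 had a fold of 86.8, SNHG17 with LOC124904958 a fold of 80.7, and PPAT, the first enzyme of purine synthesis, a fold of 76.1. At the other end, a peak at the non-coding gene FAM27B (chr9:67722961-67726990) had a fold of 1.67. The next 3 lowest folds, 2.204, 2.303 and 2.567, belonged to peaks in the 5S ribosomal RNA gene cluster of chromosome 1, the first of them also at an end of RHOU, and PRR36 followed at 3.27. Genes of the 5S cluster are near-identical copies, and the sources used here do not give how reads matching several copies were handled.

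A minority of wide peaks lay close to another wide peak. A MYC peak of any width lay within 1 kb of 639 of the 1000, against 44.8% of the other MYC peaks. The median gap to the nearest MYC peak was 526 bp in the wide peaks, 781 bp in the next 1000 and 1486 bp in all other MYC peaks. Of the wide peaks, 100 lay within 5 kb of another member of the set. These 100 formed 42 pairs, 4 groups of 3 and 1 group of 4. The group of 4 spanned 40112 bp at CBARP, ATP5F1D, CIRBP, MIDN and FAM174C (chr19:1238042-1278153), and a group of 3 spanned 34228 bp from CCDC85B to C11orf68 and DRAP1 around FOSL1. Wide peaks made up 3.30% of the MYC peaks of chromosome 17 (108 peaks), 2.96% of those of chromosome 11 and 2.93% of those of chromosome 19, against 0.454% on chromosome 18, where there were 3, and 0.823% on chromosome 21.

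The summits of the wide peaks lay almost always in active chromatin. A summit fell in an H3K4me3 peak at 989 of the 1000 (98.9%, 95% Wilson interval 98.04 to 99.38), where 75.3% of all MYC peaks did, and in an H3K27ac peak at 991 (99.1%), where 73.8% of all MYC peaks did. The next 1000 stood at 98.3% and 97.8%, close to the wide peaks. Strong MYC peaks lie in these marks more often whatever their width. The other MYC peaks were therefore also weighted to the fold deciles of the wide peaks, which gave 95.9% for H3K4me3 and 94.9% for H3K27ac. The lowest decile took in 38646 of the others, and fold is not matched within it. There the shares were 97% against 69.0% for H3K4me3 and 94% against 67.5% for H3K27ac. In the highest decile they were 100% against 100% and 100% against 99.7%. The wide peaks had the larger share in 6 of 10 deciles for H3K4me3 and in 10 of 10 for H3K27ac. Intervals here and below cover counting error only.

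KDM2B lay at the summit of 717 wide peaks (71.7%, 68.8 to 74.4), against 22.4% of all MYC peaks. The share was 73.3% (70.5 to 75.9) in the next 1000, an interval that overlaps that of the wide peaks, 21.4% in all other MYC peaks and 64.8% in the other MYC peaks weighted by fold. Within fold deciles the wide peaks had the larger share in 9 of 10, the exception being the third (62%, against 62.01%). In the lowest decile, where the wide peaks had folds of 1.67 to 8.28, it was 37% of 100 wide peaks against 10.4% of 38646 others. In the highest, where the wide peaks had folds of 35.8 to 105, it was 81% against 79.1%. These 2 deciles also took in others beyond those ranges, with folds down to 1.12 and up to 124.6. Fold is thus not matched in the lowest decile, which holds most of the others. The difference in the top decile is smaller than the counting error on 100 peaks.

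Both Polycomb marks were less frequent at the summits of wide peaks than over all MYC peaks. H2AK119ub lay at the summit of 154 wide peaks (15.4%, 13.3 to 17.8), against 21.0% of all MYC peaks. H2AK119ub was more frequent there than in the next 1000 (10.5%, 8.75 to 12.6) and than in other MYC peaks weighted by fold (5.41%), and the wide peaks had the larger share in 9 of 10 fold deciles, the exception being the lowest (19%, against 25.2%). No summit of the 1000 lay in an H3K27me3 peak, which allows a share of up to 0.3% by the rule of 3 counts for a count of 0 (the upper 95% Wilson limit is 0.383%). The share was 0.1% in the next 1000, 0.827% in other MYC peaks weighted by fold and 5.54% in all MYC peaks. The summit measure does not grow with the width of the MYC peak, whereas overlap of the whole peak does.

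**Figure D2:**
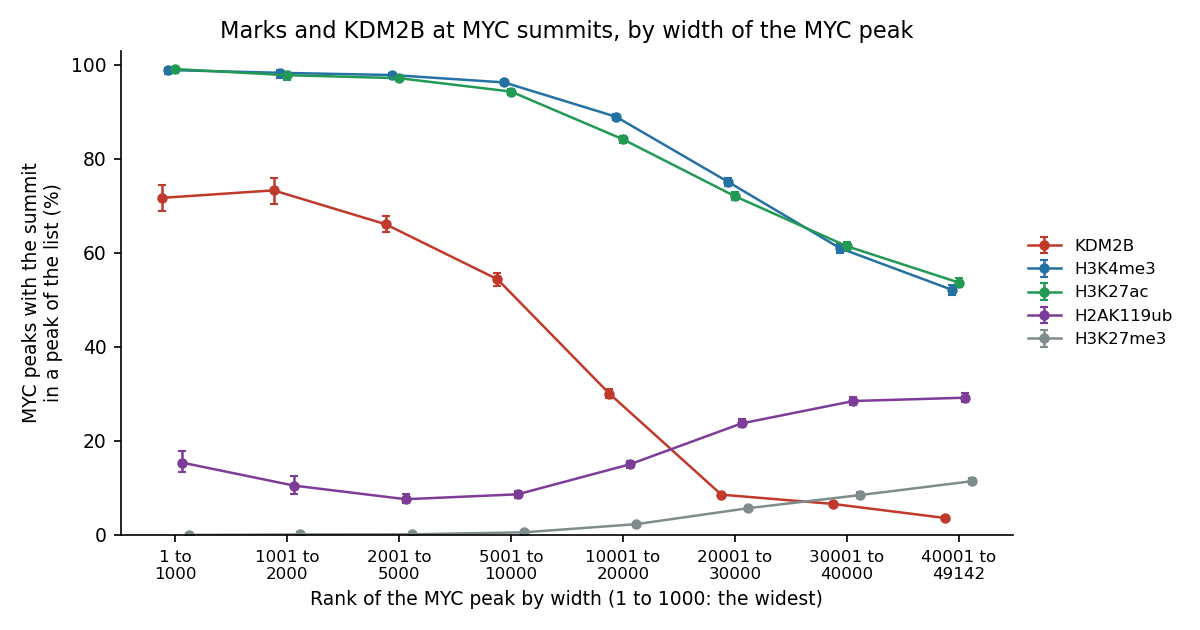
Percentage of MYC peaks whose summit lies in a peak of each list, by rank of the MYC peak in width, from the 1000 widest at the left to the narrowest at the right, with 95% Wilson intervals. KDM2B, H3K4me3 and H3K27ac are most frequent in the 2 classes at the left, H3K27me3 rises to 11.4% at the right, and H2AK119ub is lowest, 7.6%, at ranks 2001 to 5000.

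Taken over width classes, the KDM2B share was 66.1% at ranks 2001 to 5000, 54.4% at ranks 5001 to 10000, 30.1% at ranks 10001 to 20000 and 3.60% at ranks 40001 to 49142. The median MYC fold fell along the same classes, to 13.2, 10.3, 5.52 and 2.49, so width and height cannot be told apart in this gradient. H2AK119ub had its lowest share at ranks 2001 to 5000 (7.6%) and was higher on both sides, 15.4% in the wide peaks and 29.2% in the narrowest class.

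At 582 wide peaks the summit lay in KDM2B, H3K4me3 and H3K27ac peaks together and in neither Polycomb mark, a combination of 16.2% of the other MYC peaks. At 248 it lay in H3K4me3 and H3K27ac alone, a combination of 40.7% of the others. H2AK119ub joined KDM2B and both active marks at 131 wide peaks (13.1%), against 1.52% of the others. These combinations were not counted in the next 1000 or weighted by fold, and the others had a lower MYC fold. KDM2B taken singly lay at 73.3% of summits in the next 1000 and at 64.8% in others weighted by fold. The contrasts in combinations are thus not shown to be particular to the wide peaks.

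Taken whole, 923 wide peaks (92.3%) shared at least 1 bp with a KDM2B peak, against 26.5% of all MYC peaks. The share was 87.8% in the next 1000 and 74.6% in other MYC peaks weighted by fold, and such overlap grows with width. The wide peaks held 1974 of the 19831 KDM2B peaks on chromosomes 1 to 22 (9.95%). A wide peak held 2 KDM2B peaks in the median, 629 held 2 or more and 98 held 4 or more. The largest number was 9, at EPHA2 and at MIR23AHG, followed by 8 at HMGA1 and 7 each at the FOSL1 peak, the RPL23A peak, the ATP5F1D and CBARP peak, and ZFP36L1. KDM2B peaks thus covered only part of the wide MYC peaks, 29.6% of the bases in the median, with 92.2% at MISP3, 90.3% at SOCS2 and 89.5% at CDH11 as the fullest. In height, the strongest KDM2B peak in each wide peak had a fold of 1.68 to 10.98 with a median of 4.33, and the highest were at BCAR1 (10.98) and IRF2BPL (10.5).

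KDM2B was concentrated towards the middle of the wide peaks. It covered 44.6% of the bases in the 10% of the width next to the middle, on either side, and 10.4% in the 10% next to the edges. The nearest KDM2B summit was 186 bp from the MYC summit in the median (923 wide peaks with KDM2B), against 134 bp in the next 1000 and 82 bp in the other MYC peaks with KDM2B. A KDM2B summit lay within 200 bp at 51.0% of those wide peaks, against 60.3% and 71.7%. These distances count KDM2B peaks that overlap the MYC peak, and a wider MYC peak admits more distant ones, so the width that chose the peaks enters them.

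**Figure D3:**
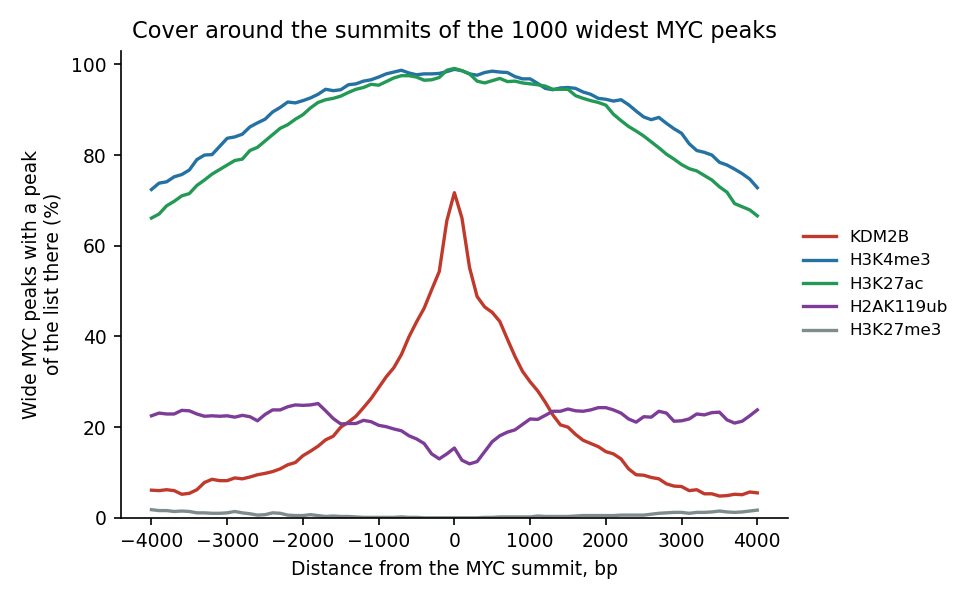
Percentage of the 1000 widest MYC peaks that have a peak of each list at a given distance in bp from the MYC summit, along the plus strand. KDM2B falls to both sides from 71.7% at the summit, H3K4me3 and H3K27ac stay above 60% as far as 4 kb, and H2AK119ub has its lower values near the summit.

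H3K4me3 and H3K27ac formed wider regions that enclosed the MYC signal. All 1000 wide peaks shared at least 1 bp with an H3K4me3 peak, where 78.8% of all MYC peaks did, and 998 did so with an H3K27ac peak, where 77.4% did. The next 1000 stood at 99.9% and 99.2%. H3K4me3 peaks covered 807 of the wide peaks completely and H3K27ac peaks covered 727 completely. The H3K4me3 peak at the summit was 10140 bp wide in the median (quartiles 7379 and 14072 bp), against 7970 bp in the next 1000 and 4269 bp in all other MYC peaks with H3K4me3. The H3K27ac peak was 9004 bp wide in the median, against 5730 bp and 3384 bp. Only 91 wide MYC peaks exceeded their H3K4me3 peak in width and 129 exceeded their H3K27ac peak, and in the median the MYC peak was 48.8% as wide as the H3K4me3 peak. Broad H3K4me3 was frequent: 427 summits lay in one of the 1000 widest H3K4me3 peaks, against 7.57% of other MYC peaks, and 411 lay in one of the 1000 widest H3K27ac peaks, against 8.64%. Spearman's rank correlation between the MYC width and the H3K4me3 width was 0.28 across 989 wide peaks, a description over peaks of the same libraries.

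The 11 wide peaks whose summit lay outside H3K4me3 were led by UQCC1 (7682 bp), HORMAD2 (6228 bp), TICAM1 (5606 bp), ABCB9 (5429 bp) and RXRA (4934 bp). At UQCC1 the H3K27ac fold reached 132, while the H3K4me3 fold reached 6.02. Its H3K4me3 peaks covered 65.2% of the MYC peak and its H3K27ac peaks covered 100% of it. H3K27ac was missing altogether at 2 wide peaks, both in SAMD11 on chromosome 1, with MYC folds of 6.22 and 7.03.

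H3K27me3 touched 14 of the wide peaks (1.4%, 0.836 to 2.34), always away from the summit, against 2% of the next 1000 (1.298 to 3.069), 1.83% of other MYC peaks weighted by fold and 7.23% of all MYC peaks. They included MRPS2 with PIERCE1, where it covered 2.69% of the bases, VEGFA (4.95%), SYT8 (18.3%) and KLF15 (6.88%). The largest cover, 40.7%, was at a region of chromosome 5 with no end of a protein-coding gene within 1 kb.

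H2AK119ub touched 645 of the wide peaks (64.5%), against 32.1% of all MYC peaks, and at 491 of the 645 it did not cover the summit. H2AK119ub covered 10.8% of the bases of a wide peak in the median. With cover this low, the count of 491 does not show that the summit was avoided. It touched 48.2% of the next 1000 and 21.5% of other MYC peaks weighted by fold. H2AK119ub covered at least 50% of the bases in 153 wide peaks. Wide examples were in PLEC (87.5%) and LAMA5 (97.4%), and others were at CSF3 with MED24 (64.8%), CD151 with CRACR2B (70.7%) and in PLEC again (51.4%). These 153 had a median MYC fold of 13.8, against 19.6 in the 355 wide peaks with no H2AK119ub. Their median H3K27ac fold was 27.6, against 59.3. KDM2B lay at the summit of 79.1% of them, against 63.9%. In the 492 peaks covered in part the values were between: 17.1 for MYC, 44.6 for H3K27ac and 75% for KDM2B. The H3K4me3 folds were closer, 38.4 in the well covered peaks, 46.6 in those covered in part and 47.1 in those with none.

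Most wide peaks lay at an end of a gene. Of the 1000, 690 (69.0%, 66.1 to 71.8) came within 1 kb of where a protein-coding gene record begins or ends, where 27.6% of all MYC peaks did, and the next 1000 stood at 69.9%. A further 72 lay at another listed start of a protein-coding gene and 67 at an end of a non-coding gene. Of the remainder, 98 lay inside a gene (9.8%, against 33.6% of other MYC peaks) and 73 lay elsewhere (7.3%, against 31.0%). A wider peak meets more windows: the summit itself lay within 1 kb of an end at 49.4% of the wide peaks, against 57.4% of the next 1000 and 24.2% of all other MYC peaks.

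The 171 wide peaks away from the listed ends and starts differed from the 829 at them. Their median MYC fold was 10.7, against 18.7, their summit lay in KDM2B at 43.3% (36.1 to 50.8), against 77.6% (74.6 to 80.3), and their median H3K4me3 fold was 22.05, against 47.91. The median H3K27ac fold was nearly the same, 44.6 against 48.4. Of other MYC peaks away from ends and starts, 8.05% had KDM2B at the summit.

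Around promoters the wide peaks reached further into the gene than before it. Of the 956 wide peaks outside chromosome 8, for which strands were listed, 582 (60.9%) held a listed start, against 61.8% of the next 1000 and 17.4% of the others, and 92 of them held starts on both strands. In the 490 with starts on one strand only, the peak extended 1791 bp before the start and 2851 bp into the gene in the median. The longer side was the gene's at 70.6% (66.4 to 74.5), against 66.0% in the next 1000 and 69.6% in the others, so the lean towards the gene was of like size in all 3 sets. The MYC summit lay within 500 bp of the start at 59.6% of them, against 70.6% and 89.5%. All these peaks hold the start, and the others reached only 651 bp before it and 953 bp into the gene in the median. A narrower peak thus keeps its summit nearer the start, and a wider peak holds a start more readily. The width that chose the peaks therefore enters these shares and those of peaks holding a start.

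**Figure D4:**
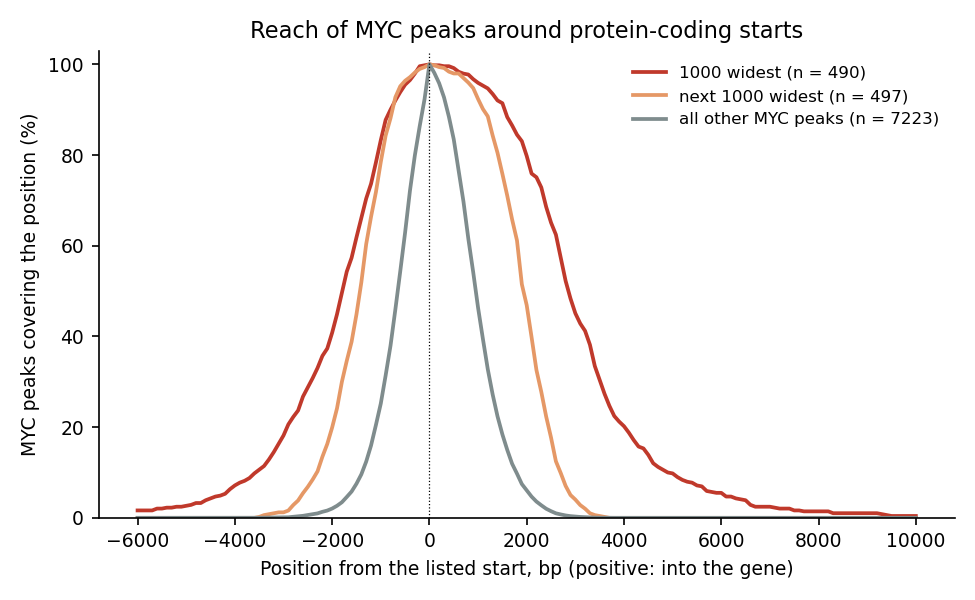
Percentage of MYC peaks that cover each position, in bp, around the listed start of a protein-coding gene, for peaks with starts on one strand only (490 of the widest 1000, 497 of the next 1000 and 7223 others), with positive positions into the gene. The wide peaks extend further to the right (median 2851 bp) than to the left (median 1791 bp).

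Ends of 959 protein-coding genes lay at a wide peak, 5.01% of the 19126 genes on chromosomes 1 to 22, while 65.0% of those genes had any MYC peak there. Among genes with a MYC peak the share at a wide one was 7.71%. Ends of 2 or more genes lay at 242 wide peaks, of 3 or more at 46, and of 4 at most. A wide peak could hold a gene from end to end: 90 of them held 99 whole genes, with a median length of 2325 bp. These small genes included FOSL1, RPL3, RPL23A, RPLP0, GAPDH, JUNB, IER2, ID1 and ID3.

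Groups of protein synthesis genes had different shares at wide peaks, highest for the listed cytosolic ribosomal proteins. Of 25 listed cytosolic ribosomal proteins, 14 (56%, 37.1 to 73.3) lay at a wide peak, led by RPL3, RPLP0 (fold 32.6), RPL8 (8449 bp, fold 53.0) and RPS2 (7488 bp, fold 54.3). All 25 had some MYC peak. Taking instead all 80 RPL and RPS genes by symbol, a choice made after their values were seen, 34 (42.5%) lay at a wide peak and 78 at any MYC peak. The corresponding counts were 5 of 77 for MRPL and MRPS genes of the mitochondrial ribosome and 2 of 49 for PSM genes of the proteasome, of which 75 and 44 had a MYC peak. EIF genes of translation initiation had 4 of 53 (7.55%), EIF3B, EIF4A1, EIF4A2 and EIF4G1, beside 7.71% of all genes with a MYC peak. Of 27 ribosome biogenesis genes, 8 lay at a wide peak (29.6%), led by UBTF (a factor of RNA polymerase I, 6254 bp, fold 18.3), NPM1 (nucleophosmin, 5826 bp, fold 59.7), NOP58 (a snoRNP protein, 5637 bp, fold 49.6) and NOLC1 (4796 bp, fold 73.0). Cytosolic aminoacyl-tRNA synthetases had MYC peaks at 20 of 20 genes and wide ones at 2, VARS1 and YARS1.

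Genes of metabolism varied. Amino acid transporters lay at a wide peak in 7 of 16 (43.8%, 23.1 to 66.8), led by SLC7A5 (6654 bp, fold 24.3), the glutamine carrier SLC1A5 (6597 bp, fold 24.0), the cationic amino acid carrier SLC7A1 (5295 bp, fold 55.3) and the taurine carrier SLC6A6 (5017 bp, fold 25.9). Enzymes of amino acid synthesis and one-carbon metabolism did so in 1 of 23, MAT2A (4.35%, 0.772 to 21.0), near the 5.01% of all protein-coding genes, and 22 had some MYC peak. Glycolysis had 6 of 21, led by GAPDH (9085 bp), PFKFB4, the glucose transporter SLC2A1 and PKM. Nucleotide synthesis had 5 of 18, namely IMPDH2 (8588 bp), RRM2, PPAT, PFAS and CTPS1. ATF4-responsive stress genes had 5 of 18, which were VEGFA, PPP1R15A, CEBPB, DDIT4 and ATF4 itself.

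Among regulators, AP-1 and immediate early genes lay at a wide peak in 12 of 28 (42.9%, 26.5 to 60.9), led by FOSL1, IER2, ZFP36L1 (7729 bp, fold 38.2) and FOSL2 (7655 bp, fold 30.0). Of all protein-coding genes 5.01% lay at a wide peak, and 7.71% of those with a MYC peak. YAP and TEAD genes did so in 6 of 20 (30%, 14.5 to 51.9), led by AXL, CRIM1, AJUBA and F3. Of the 13 genes of the MYC, MAX and MXD network there were 3 (23.1%, 8.18 to 50.3): MNT, MYC itself (6168 bp, fold 6.55) and MLXIP (4013 bp, fold 31.3). Cell cycle genes had 4 of 22 (18.2%, 7.31 to 38.5), among them CCND1, CDK6 and CDKN1B. Polycomb subunits had 4 of 30 (13.3%, 5.31 to 29.7), among them CBX8, PCGF2 and RING1. Developmental transcription factors had 5 of 40 (12.5%, 5.46 to 26.1), namely GATA6, ZIC2, IRX5, FOXC1 and IRX3. Of these 40 only 14 had any MYC peak. The lower limits of the Polycomb and developmental lists lie close to the 5.01% of all protein-coding genes.

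Of 26 mesenchymal and basal genes 6 lay at a wide peak (23.1%, 11.03 to 42.05), led by ITGA3, PLAU, EGFR and CD44, and of 22 luminal and epithelial genes 1 did, CLDN7 (4.55%, 0.807 to 21.8), beside 5.01% of all protein-coding genes. The intervals of these lists overlap. H3K27ac at the ends of VIM, CD44 and EGFR reached folds of 75.9, 61.5 and 81.1, whereas CDH1, ESR1 and PGR had no H3K27ac peak there. The epithelial gene EPCAM and the receptor gene ERBB2 did have one, with folds of 10.6 and 12.2. MDA-MB-231 is known as a mesenchymal line without oestrogen or progesterone receptor. All these lists are small, their intervals are wide, and MYC fold and gene length were not held equal between them.

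**Figure D5:**
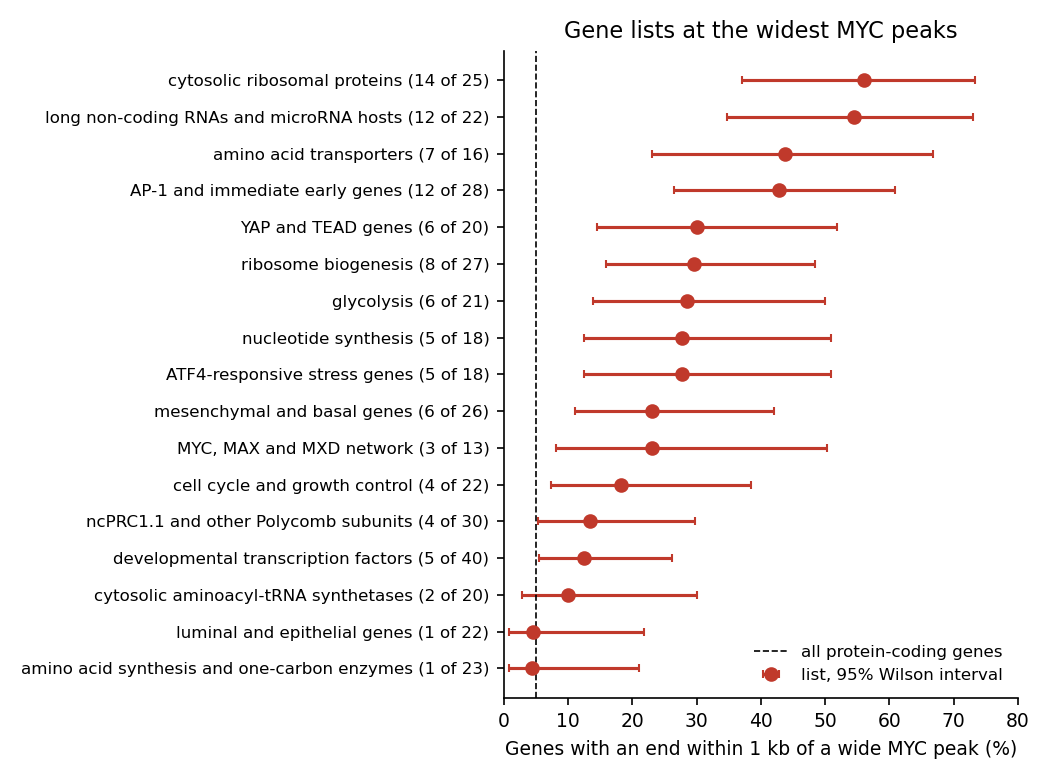
Percentage of the genes of each list with an end within 1 kb of one of the 1000 widest MYC peaks, with 95% Wilson intervals (counting error only), and a dashed line at 5.01%, the share of all protein-coding genes. Cytosolic ribosomal proteins (56%) stand at the top, and amino acid synthesis enzymes (1 of 23) at the bottom.

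Non-coding genes at wide peaks included many hosts of small RNAs. Of 22 listed long non-coding RNAs and microRNA hosts, 12 (54.5%, 34.7 to 73.1) lay at a wide peak, where 1.78% of all lncRNA genes did. Of the 22, 18 had any MYC peak. Among all lncRNA genes with a MYC peak, 6.70% lay at a wide one. The 12 were led by MIR23AHG, PVT1 (6574 bp, fold 39.2), SNHG3 (5938 bp, fold 10.2) and MIR22HG (5467 bp, fold 19.5). Of the 29 SNHG genes, the hosts of small nucleolar RNA (snoRNA), taken by symbol after their values were seen, 11 lay at a wide peak and 27 at any MYC peak. Wide peaks overlapped 88 snoRNA genes in 38 peaks, or 17.1 per Mb, against 2.63 per Mb in the next 1000 and 1.40 per Mb in all other MYC peaks. One peak at SNHG1 and SLC3A2 alone held 9 of them, the one at EIF4A2 held 5, and those at RPL3, RPL23A, RPL13A and SNHG12 were among those that held 4 each. Since snoRNA genes sit together in the introns of a few hosts, the 38 peaks and not the 88 genes are the separate observations. By peaks, the shares were 3.8% of the wide peaks, 0.9% of the next 1000 and 0.0976% of all other MYC peaks, and a wider peak can overlap more genes. Transfer RNA genes lay in 5 wide peaks (0.5%), against 0.6% of the next 1000 and 0.278% of all other MYC peaks, and their density was 1.55 per Mb, against 3.805 and 3.96.

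MicroRNA genes were overlapped by 37 wide peaks, 42 genes in all or 8.14 per Mb, against 4.98 per Mb in the next 1000 and 4.62 per Mb in the others. For 34 of these genes the RefSeq table gave a sequence on the plus or minus strand of GRCh38.p14, with 53 mature forms. The best known of them are shown with the seed, bases 2 to 8, in capitals.
hsa-miR-23a-3p, chr19:13836595-13836615, minus strand: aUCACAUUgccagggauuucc
hsa-miR-27a-3p, chr19:13836447-13836467, minus strand: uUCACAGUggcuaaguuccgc
hsa-miR-24-3p, chr19:13836289-13836310, minus strand: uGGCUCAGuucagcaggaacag
hsa-miR-191-5p, chr3:49020672-49020694, minus strand: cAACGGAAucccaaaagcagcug
hsa-miR-17-5p, chr13:91350618-91350640, plus strand: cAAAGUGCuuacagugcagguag
hsa-miR-18a-5p, chr13:91350756-91350778, plus strand: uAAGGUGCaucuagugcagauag
The first 3 lie in the MIR23AHG peak (11347 bp, fold 21.7), miR-191 with miR-425 in the IMPDH2 peak (8588 bp, fold 18.0), and miR-17 with miR-18a at the edge of the MIR17HG peak (4066 bp, fold 57.1). MIR17HG carries the miR-17-92 cluster, a known MYC target. No seed was shared between any of the 53 mature forms. MIR22 lies in the MIR22HG peak.

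The E-box was found in a minority of the promoters at wide peaks. CACGTG, which reads the same on both strands, was present in 126 of the 990 listed promoters at a wide peak (12.7%, 10.8 to 14.9), against 10.1% (9.57 to 10.7) at other MYC peaks, 4.49% at promoters with H3K4me3 and no MYC peak, and 8.25% of all 21156 listed promoters. CACGCG or CGCGTG was present in 23.1%, against 19.2% at other MYC peaks and 14.3% of all. The 990 promoters belong to 688 genes, and the 11670 at other MYC peaks to 9081 genes. Promoters of the same gene are not separate observations, and the intervals count each promoter as one, so they may be too narrow. Where the promoter held the MYC summit itself, CACGTG was present in 26 of 83 (31.3%, 22.4 to 41.9) for wide peaks, against 17.0% of 2529 for other MYC peaks. MYC fold was not held equal in these shares. Median GC content of these summit-holding promoters was 71.7%, against 70%. The median distance between the motif and the summit was 23.5 bp in those 26, against 32.5 bp in 429, and it was within 50 bp in 57.7% (38.9 to 74.5), against 58.5%. GC content of promoters at wide peaks was 68% in the median, against 66.3% at other MYC peaks, and the ratio of observed to expected CpG was 0.863, against 0.847. A match of these letters is a description of the window and not a measured site.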

How the data were processed

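Parental MDA-MB-231 libraries for 5 targets and Empty Vector libraries for H3K27ac (18 libraries in 9 groups of 2, with inputs and ATF4) stood behind 6 deposited peak lists. Whether the 2 libraries of a target were separate cultures is not stated in the labels. The submitters' processing notes name Trim Galore with no version, Bowtie2 (2.4.5), SAMtools (1.6), MACS2 (2.2.7.1) and build hg38. Chromatin was digested enzymatically, per the labels' protocols. The control of each list and any pooling of libraries are not given in the sources used here. Fold is the deposited ratio at the summit, made by the authors' peak caller from signal over background. The deposited −log10 q-value is the peak caller's, and the deposited score is that value times 10, cut to a whole number. No read counts are in the lists, and depth is therefore unknown. All are narrow-peak calls, also for the broad marks, and such calls can divide or join signal and so set a peak's width.

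Peaks on chromosomes 1 to 22 were ranked by end minus start, with ties by chromosome and start, and the 1000 widest kept. The members and the 17 gene lists (396 genes) were chosen with earlier results of these data known. A summit counted as in a list when its base lay in a peak, and overlap meant at least 1 bp. Fold weighting averaged the shares of the other MYC peaks over the 10 fold deciles of the wide peaks. The lowest and highest deciles also took in others with folds outside the range of the wide peaks. Genes came from the RefSeq table of GRCh38.p14, without strand. The plan had named starts where strand is given; it was given for 79.0% of protein-coding genes and none on chromosome 8, so windows of 1 kb around the 2 ends of a gene record were used. Intervals are 95% Wilson intervals for counting error only, and no test across libraries was possible. Overlap functions were tested on simulated regions (500 queries, 0 mismatches). Python 3.11.15, pandas 2.3.3, NumPy 2.4.6, SciPy 1.17.1 and matplotlib 3.10.9 were used.

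Named were the 20 widest peaks, the 5 of highest and of lowest fold, those richest in KDM2B, up to 4 genes per list by width, the 5 widest without H3K4me3 or with H3K27me3, the 3 on either side of the bound, and all items of any count of 5 or fewer. A few items that this rule names are not reported here. Other names, the symbol families, the last 4 promoters and the choice of microRNAs followed after values were seen. Alternatives were whole overlap or 50% cover, stricter lists, 500 or 2000 peaks, merged peaks, other windows, listed starts, and other letters.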

Additional observations from a re-analysis of the deposited data

How the results depend on the processing

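Among 96 recomputed values, 70 stayed within the counting interval of the value reported or, for gene counts, within 1.5 times of it, and 26 moved. The KDM2B share (71.7% at the summit) became 92.3% with at least 1 bp of overlap, 20.3% with at least 50% of the bases covered, 63.8% with KDM2B peaks of q under 1e-5 and 68.0% with the 15000 of highest fold. H3K4me3 (98.9%) became 100% with 1 bp, 99.8% with 50% cover and 90.6% with the 15000 highest, and H3K27ac (99.1%) became 99.8% with 1 bp and 92.8% with the 15000 highest. H2AK119ub (15.4%) became 64.5% with 1 bp, 9.1% with q under 1e-5, 3.9% with the 15000 highest, 18.2% in the 500 widest and 12.95% in the 2000 widest, and H3K27me3 (0%) became 1.4% with 1 bp. The share at gene ends (69.0%) became 49.4% for summits and 63.1% for listed starts without chromosome 8, an alternative chosen after seeing the data. With 2000 peaks, counts became 7 for the MYC network, 2 for luminal genes, 7 for cell cycle, 4 for amino acid synthesis, 5 for tRNA synthetases, 9 for ATF4-responsive genes and 11 for glycolysis. A larger set of peaks also takes in more of all genes, and these counts were not set beside that share. CACGTG (12.7%) became 31.3% in promoters that hold the summit, and CACGCG or CGCGTG gave 23.1%. Merging MYC peaks no more than 500 bp apart moved none of the shares, although 774 of the 1000 widest merged regions joined 2 or more peaks. No paired analysis was possible because the 2 libraries of a target cannot be separated within its list, and for the same reason no library could be left out. Depth is unknown, so a summit outside a list is not shown to lack the mark.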

Other observations

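Chromosome X, outside the rule for the 1000 peaks, held 667 MYC peaks, of which 4 were at least 3848 bp wide.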
